A study of Mus musculus with 17 samples.

Results

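Clock repressors and genes that glucocorticoid hormones switch on were described over fetal and adult blood stem cells. The genes are Bhlhe40, Bhlhe41, Klf9, Per1, Per2, Dbp, Nr1d1, Nr1d2, Tsc22d3 and Fkbp5, 10 of the 18193 genes that a probe set, a group of short probes on the array, named alone. Every probe set annotated to a member symbol and to no other gene was taken, which gave 26 of the 45037 probe sets other than controls. Klf9 had 7 of them, Tsc22d3 4, Per2 and Fkbp5 3 each, Bhlhe41, Dbp and Nr1d2 2 each, and Bhlhe40, Per1 and Nr1d1 1 each. The genes were selected on earlier results of these arrays, and which comparison chose them is not recorded. Their differences between fetal and adult cells are therefore given as a description, without p-values. Whether a member probe set passed the test used for all probe sets is part of that description. Such a call, kept or lost when an array is left out, supports nothing further.

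The arrays measured RNA of sorted mouse hematopoietic stem cells (HSCs), the cells that renew themselves and give rise to all blood lineages, and the series title places C/EBPa, a myeloid transcription factor, in the quiescence of adult HSCs. Fetal liver HSCs were taken at E15.5, a stage of mid to late gestation (n = 3 arrays) and sorted as lineage-negative, Mac-1 low, Sca1+, cKit+, CD150+ and CD48- cells. Adult HSCs were sorted with the same markers except Mac-1, as C/EBPa KO (knockout) and control cells at day 7 (n = 3 arrays each) and day 21 (n = 4 arrays each) after injection of pIpC, a double-stranded RNA. Both adult genotypes received pIpC, and the labels name none for the fetal mice, so injection, tissue and stage cannot be told apart in the fetal comparison. The titles name the C/EBPa KO, whereas the genotype entry of the KO samples and the design text name a homozygous PU.1 knock-in (PU.1ki/ki). The labels conflict, and groups follow the titles. The controls are labelled wild type. The labels give neither the promoter or cell type of a Cre, nor the strain, the age of the adult mice or the hour of collection. They do not say whether replicates were separate animals either. A p-value here therefore measures array-to-array spread, which may be technical.

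The mammalian clock is a feedback loop in which the activators CLOCK and BMAL1 (gene Arntl) bind E-box sequences and switch on their own repressors. The period proteins PER1 and PER2 inhibit the activators, BHLHE40 and BHLHE41 (also called DEC1 and DEC2) compete for E-boxes, and the nuclear receptors REV-ERBα (Nr1d1) and REV-ERBβ (Nr1d2) repress Arntl. DBP is an output factor that binds D-box sequences. Glucocorticoids act through the receptor encoded by Nr3c1, and Per1, Klf9, Tsc22d3 and Fkbp5 are among its known direct targets in many tissues.

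Promoter windows of 300 bases, from 250 before to 50 after the start of transcription, came from RefSeq with build GRCm38.p6 and were found for 8 of the 10 genes, as 11 windows. Bhlhe40 and Per2 had no window. For Per1, Fkbp5 and Bhlhe41 the window that holds the canonical E-box CACGTG, printed in capitals, is shown. The window of Klf9 is shown because the gene carried the widest fetal difference on several probe sets. Per1 lies on chromosome 11 (chr11:69098699-69098998, plus strand), with the first base of its E-box 166 bases before the start. A second Per1 window (chr11:69099902-69100201, plus strand) holds no CACGTG and is not shown. Fkbp5 lies on chromosome 17 (chr17:28486100-28486399, minus strand) with the E-box 169 bases before, and Bhlhe41 on chromosome 6 (chr6:145865371-145865670, minus strand) with the E-box 153 bases before. Klf9 lies on chromosome 19 (chr19:23140976-23141275, plus strand), and its window holds no CACGTG.
Per1: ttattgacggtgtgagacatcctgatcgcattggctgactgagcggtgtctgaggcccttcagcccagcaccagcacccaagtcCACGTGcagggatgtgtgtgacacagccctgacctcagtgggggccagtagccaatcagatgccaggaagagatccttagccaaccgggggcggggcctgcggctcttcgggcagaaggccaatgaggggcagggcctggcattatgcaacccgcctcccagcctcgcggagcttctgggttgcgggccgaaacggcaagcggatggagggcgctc
Fkbp5: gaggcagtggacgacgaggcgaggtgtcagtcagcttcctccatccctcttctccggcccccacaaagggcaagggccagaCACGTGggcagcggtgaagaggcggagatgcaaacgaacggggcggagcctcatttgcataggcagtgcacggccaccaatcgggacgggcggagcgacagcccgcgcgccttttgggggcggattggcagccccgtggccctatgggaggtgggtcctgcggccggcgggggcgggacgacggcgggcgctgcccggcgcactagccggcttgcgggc
Bhlhe41: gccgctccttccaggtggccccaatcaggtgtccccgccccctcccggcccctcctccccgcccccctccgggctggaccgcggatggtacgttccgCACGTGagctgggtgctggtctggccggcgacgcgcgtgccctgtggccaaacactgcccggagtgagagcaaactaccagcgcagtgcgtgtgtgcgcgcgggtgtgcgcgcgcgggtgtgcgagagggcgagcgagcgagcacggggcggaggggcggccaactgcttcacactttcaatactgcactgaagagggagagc
Klf9: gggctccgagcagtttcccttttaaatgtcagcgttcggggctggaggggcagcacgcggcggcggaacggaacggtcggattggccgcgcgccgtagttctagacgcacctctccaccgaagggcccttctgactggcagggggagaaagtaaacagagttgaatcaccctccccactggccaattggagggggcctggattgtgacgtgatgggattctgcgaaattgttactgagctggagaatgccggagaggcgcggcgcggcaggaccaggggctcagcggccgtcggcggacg
CACGTG, which reads the same on both strands, occurred in 3 of the 11 member windows and in 7.15% of all 32851 windows of this length. The D-box TTATGTAA was searched on both strands and occurred in none of the member windows and in 0.938% of all windows. The palindromic glucocorticoid element, AGAACA and TGTTCT with 3 bases of any kind between them, occurred in none of the member windows and in 0.00913% of all windows. These searches describe letters in a short window and say nothing of binding.

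The deposited values are intensities on a linear scale with a lowest value of 16 on each array, called the floor here. Levels are given as intensities per array and as means of log2 intensity, on which the floor is 4, and a difference of 1 on the log2 scale is a factor of 2. Cebpa, the gene for C/EBPa, ranged from 20.7 to 32.0 on the KO arrays at day 7, against 136 to 315 on the control arrays, and from 25.0 to 39.8 on the KO arrays at day 21, against 115 to 532 on the control arrays. Averaged over both days it was called lower in KO cells (-2.78, SE 0.36 on the log2 scale, limma adjusted p = 0.0418), a call lost in 8 of 14 fits that left out 1 array and in 3 of 9 other alternatives, with adjusted p = 0.0514 on the compared arrays alone, 0.0603 with the replicate block and 0.209 with the floor share as covariate. It was not called at day 7 (-2.73, SE 0.55, limma adjusted p = 0.248) or day 21 (-2.82, SE 0.48, limma adjusted p = 0.0743), although KO and control arrays did not overlap. Spi1, the gene for PU.1, ranged from 338 to 459.9 on the KO arrays at day 7, against 219 to 438 on the control arrays, and from 231 to 396 on the KO arrays at day 21, against 126 to 623 on the control arrays. The HSC markers Kit, Procr, Mecom and Slamf1 were present in every group. The gate excludes CD48, and Cd48 averaged 7.02 in fetal cells, 6.86 in KO and 4.08 in control cells at day 7, and 7.15 in KO and 6.21 in control cells at day 21 on the log2 scale. The median intensity of an array ranged from 39.4 to 53.1, and 20.4% to 25.2% of its probe sets lay at the floor. Control day 21 replicate 3 had the lowest median, the highest share at the floor, the lowest mean correlation with its group (r = 0.810 of log2 intensity) and the smallest difference between the 3' and 5' Gapdh control probe sets, 0.044 on the log2 scale against 0.65 to 1.48 on the other 16 arrays.

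The first comparison asks how the clock and glucocorticoid response genes stood in fetal liver HSCs against adult control HSCs of both days. Bhlhe40, Klf9 and Per1 were lower on every fetal array than on every adult array, KO arrays included. The fetal difference on the log2 scale was -5.40 for Bhlhe40, -5.32 for the main probe set of Klf9 and -2.03 for Per1. Nr1d2 and Tsc22d3 were lower on some of their probe sets, while Per2, Dbp, Nr1d1, Fkbp5 and Bhlhe41 differed by less than 1 on the log2 scale on their main probe sets and overlapped the adult controls. The main probe set of a gene is the one with the highest mean over the 17 arrays.

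A linear model over all 40023 probe sets above the floor on at least 1 array (limma, called at an adjusted p under 0.05) called 3.07% of them in the fetal comparison, 1.46% higher and 1.61% lower. Of the 25 member probe sets in that fit, 10 were called lower and 0 higher; the third Fkbp5 probe set, 1447736_at, was at the floor on all 17 arrays. The members may have been chosen for this pattern, so nothing is read from the count. The 10 probe sets belong to 5 genes: 6 to Klf9 and 1 each to Bhlhe40, Per1, Nr1d2 and Tsc22d3. The difference was negative for 23 of the 25 and positive for 2, with a median of -1.08, against -0.0032 over all probe sets tested. Every fetal array lay below all 14 adult arrays on 7 member probe sets of 3 genes, as on 1.35% of all probe sets. In sorted bulk cells, fewer cells of a type and less RNA per cell cannot be told apart.

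**Figure D1:**
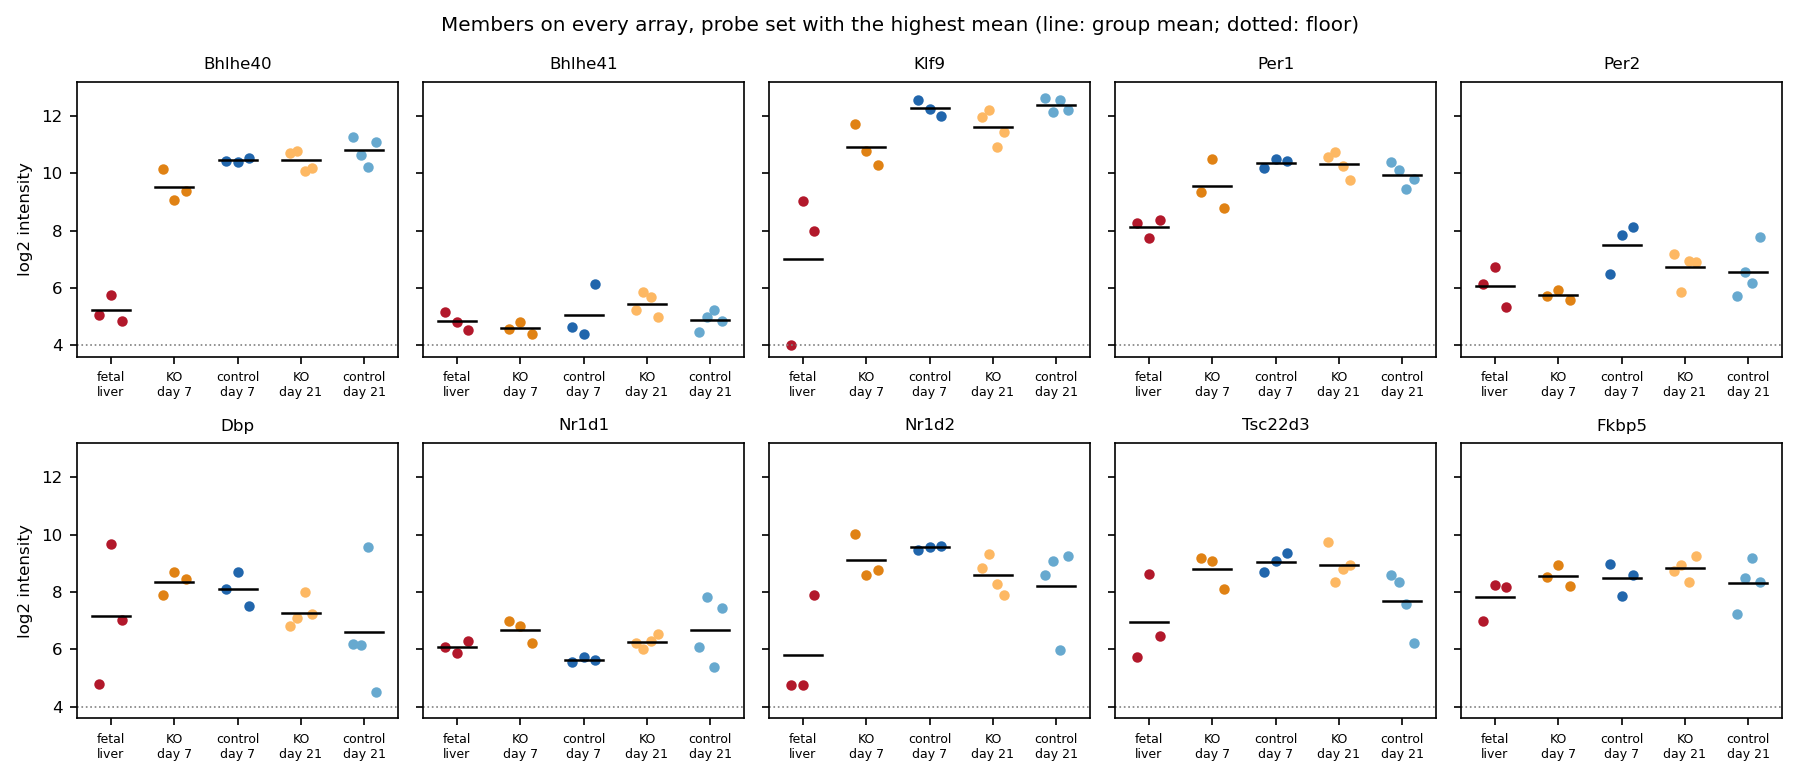
Log2 intensity (vertical axis) of the main probe set of each of the 10 genes on each of the 17 arrays, by group (horizontal axis); points are arrays, lines are group means and the dotted line is the floor of 4. Bhlhe40, Klf9 and Per1 show all 3 fetal points below every adult point.

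Bhlhe40 encodes a basic helix-loop-helix repressor of E-box genes. Its intensity was 33.2, 54.0 and 29.0 on the fetal arrays. In control cells it was 1392, 1333 and 1473 at day 7 and 2449, 1575, 1203 and 2179.7 at day 21. Fetal and control arrays lay far apart, with no overlap. The group means of log2 intensity were 5.22 ± 0.47 in fetal liver, 9.52 ± 0.55 in KO and 10.45 ± 0.07 in control cells at day 7, and 10.45 ± 0.36 in KO and 10.80 ± 0.47 in control cells at day 21 (SD, n = 3, 3, 3, 4 and 4). The fetal difference was -5.40 (SE 0.28), a 42.3-fold lower geometric mean. In order of level, fetal liver stood alone at the bottom. KO cells at day 7 came next, below every control array of either day but overlapping KO cells at day 21, and the remaining 3 groups overlapped each other. Bhlhe41, the paralog of Bhlhe40, was dim on both of its probe sets. Its main probe set read 35.5, 28.3 and 23.1 on the fetal arrays, against 25.0, 20.8 and 70.0 in control cells at day 7 and 22.2, 32.0, 38.0 and 28.9 at day 21. The ranges overlapped, and the fetal differences were -0.14 (SE 0.33) and 0.07 (SE 0.15).

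Klf9 encodes a Krüppel-like zinc finger factor that both the clock and glucocorticoids induce. Its main probe set, 1456341_a_at, read 16, 527 and 253 on the fetal arrays, the first of them at the floor. In control cells it read 6089, 4875 and 4067 at day 7 and 6332, 4495, 6089 and 4679 at day 21. Fetal arrays varied widely on this probe set, with a mean of 7.01 ± 2.66 against 12.27 ± 0.29 and 12.38 ± 0.25 in controls of day 7 and day 21 (SD, n = 3, 3 and 4), and its fetal difference of -5.32 (SE 0.77) was -3.81 without fetal replicate 1 and -6.33 without fetal replicate 2. The probe set 1428289_at was steadier. It read 26.1, 63.4 and 63.8 on the fetal arrays, against 3719.9, 2915 and 2096 in control cells at day 7 and 3499, 1867, 1654 and 2356 at day 21, a difference of -5.74 (SE 0.44).

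All 7 Klf9 probe sets were lower in fetal cells, by differences between -5.74 and -1.08. The probe sets 1428288_at, 1422264_s_at and 1436763_a_at differed by -4.74, -4.73 and -4.41, and 1422264_s_at was at the floor on 2 of 3 fetal arrays. The suffix of 1422264_s_at marks probes that can also match similar sequences, and the main probe set of Dbp, 1438211_s_at, is of that kind too. The dim probe set 1452723_at read 20.2, 16 and 17.9 on the fetal arrays, against 392, 393 and 224 in control cells at day 7 and 154, 78.9, 26.3 and 17.9 at day 21. Its difference of -2.81 (SE 0.64) was called, and the call was lost when any of the 3 fetal arrays, control day 7 replicate 1 or 2 or control day 21 replicate 2 was left out, with differences of -2.90 to -2.70 in those fits. The probe set 1436952_at was not called (-1.08, SE 0.40). For the main probe set, the order of group means ran from fetal liver through KO day 7, KO day 21 and control day 7 to control day 21. Only fetal liver was separated from its neighbour in that order by non-overlapping arrays.

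**Figure D2:**
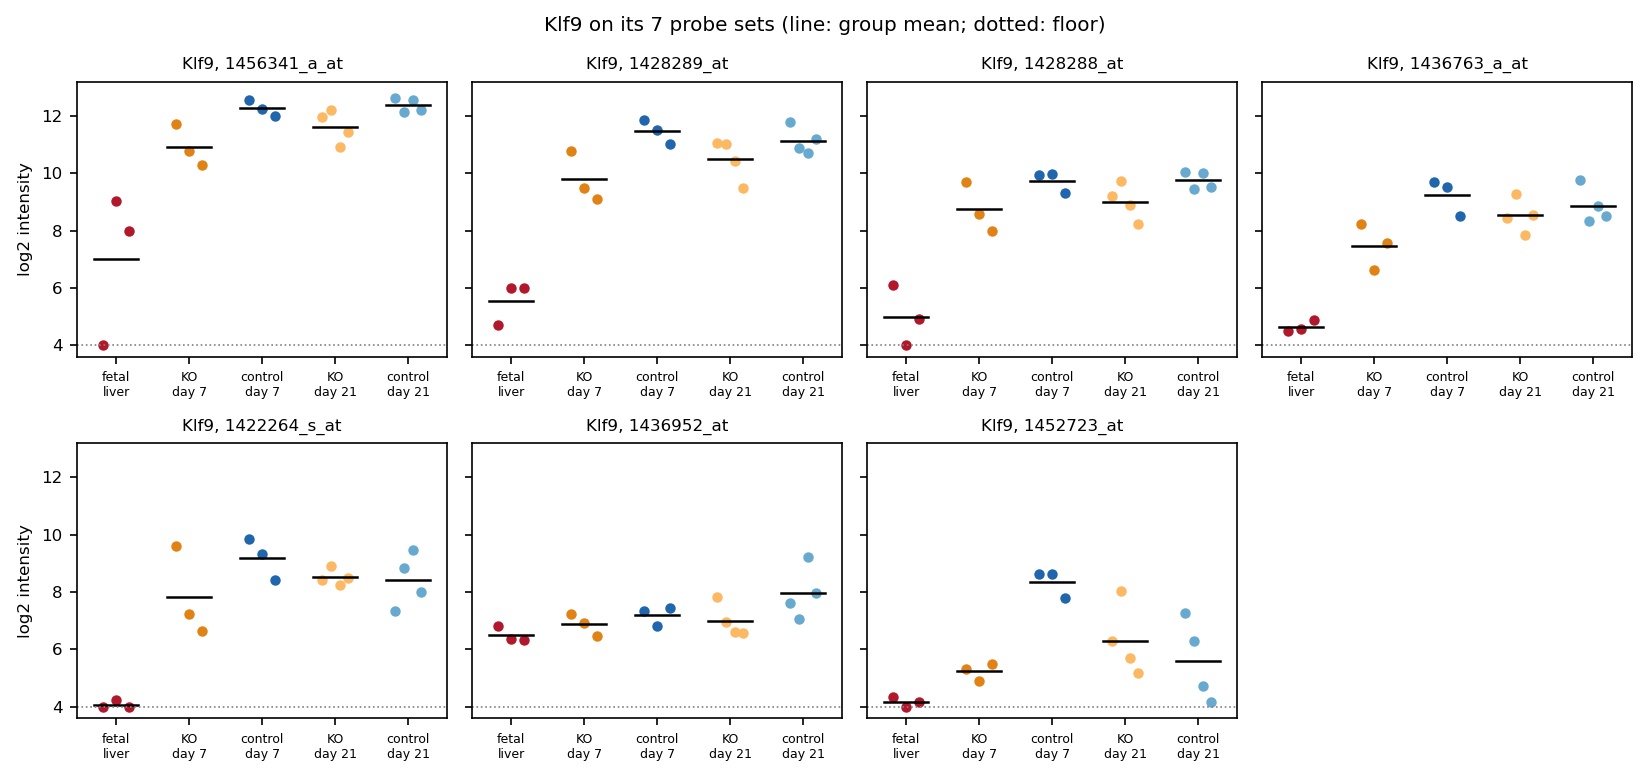
Log2 intensity (vertical axis) of the 7 Klf9 probe sets on each array, by group (horizontal axis); points are arrays, lines are group means and the dotted line is the floor of 4. Fetal points lie below every adult point on 5 of the 7 probe sets, and the main probe set has a fetal array at the floor.

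Per1 and Per2 encode the period repressors, of which Per1 responds quickly to glucocorticoids. Per1 read 305, 213 and 329 on the fetal arrays. In control cells it read 1155, 1441 and 1388 at day 7 and 1334, 1115, 698 and 892 at day 21. Every fetal array was below every control array, and the difference was -2.03 (SE 0.33), a 4.10-fold lower geometric mean. In order of mean log2 intensity, fetal liver (8.12 ± 0.33, SD, n = 3) was followed by KO day 7 (9.54 ± 0.87, n = 3), control day 21 (9.94 ± 0.40, n = 4), KO day 21 (10.33 ± 0.43, n = 4) and control day 7 (10.37 ± 0.17, n = 3). The 4 adult groups overlapped in that order. Per2 read 71.3, 107 and 40.3 on the fetal arrays, against 89.2, 230.5 and 282 in control cells at day 7 and 53.4, 93.2, 72.4 and 219.9 at day 21. The fetal range overlapped the controls, and the 3 Per2 probe sets differed by -0.95 (SE 0.47), -0.60 (SE 0.46) and -0.15 (SE 0.71).

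Nr1d1 and Nr1d2 encode the heme-binding REV-ERB repressors. Nr1d1 read 67.8, 58.1 and 78.1 on the fetal arrays, against 46.8, 53.1 and 49.5 in control cells at day 7 and 68.7, 226, 41.9 and 173 at day 21. Fetal values lay above the day 7 controls and within the day 21 range, and the difference from the mean of both was -0.08 (SE 0.41). Nr1d2 read 27.4, 27.1 and 239 on the fetal arrays on its main probe set, 1416959_at. In control cells it read 710.5, 766 and 785 at day 7 and 391, 539, 63.5 and 607 at day 21. Fetal replicate 3 lay above control day 21 replicate 3, so the groups overlapped. The difference of -3.08 (SE 0.76) was called, but 8 of the 10 fits that left out 1 array lost the call: those without fetal replicate 1 or 2, any control of day 7, or control day 21 replicate 1, 2 or 4, with differences of -3.10 to -2.55. Without fetal replicate 3 it was called at -4.13. The other Nr1d2 probe set, 1416958_at, differed by -1.27 (SE 0.51) and was not called. Dbp, the D-box output factor, read 27.8, 812 and 131 on the fetal arrays, against 279, 412 and 181 in control cells at day 7 and 72.7, 71.7, 754 and 23.2 at day 21. The highest array was 29.2 times the lowest in fetal liver and 32.6 times in the day 21 controls, and the difference was -0.19 (SE 0.99), with -0.11 (SE 0.38) on the other probe set. On the main probe set the fetal difference of Dbp changed with single arrays: it was 0.99 without fetal replicate 1, -1.44 without fetal replicate 2 and 0.30 without control day 21 replicate 3.

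Tsc22d3 encodes GILZ, a leucine zipper protein that glucocorticoids induce and that mediates part of their anti-inflammatory action. Its main probe set read 53.3, 394 and 88.9 on the fetal arrays, against 421, 542 and 661 in control cells at day 7 and 388, 329.9, 193 and 75.8 at day 21. The groups overlapped, and the difference of -1.43 (SE 0.60) was not called; it was -0.83 without fetal replicate 1 and -2.27 without fetal replicate 2. The probe set 1425281_a_at read 49.9, 149 and 52.4 on the fetal arrays, against 294, 416 and 362 in control cells at day 7 and 272, 260.0, 258 and 99.6 at day 21. Its difference of -1.89 (SE 0.40) was called, and the call was lost without fetal replicate 1 (-1.61) or fetal replicate 3 (-1.65). The remaining pair of probe sets, 1425557_x_at and 1444365_at, differed by -0.14 (SE 0.18) and 0.58 (SE 0.60), and the first of these can match similar sequences. Fkbp5 encodes FKBP51, a co-chaperone that glucocorticoids induce and that lowers the hormone affinity of their receptor. It read 129, 302 and 292 on the fetal arrays, against 503, 235 and 390.4 in control cells at day 7 and 150.4, 363, 588 and 329 at day 21. These ranges overlapped, and the 2 probe sets above the floor differed by -0.59 (SE 0.40) and -0.62 (SE 0.52).

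**Figure D3:**
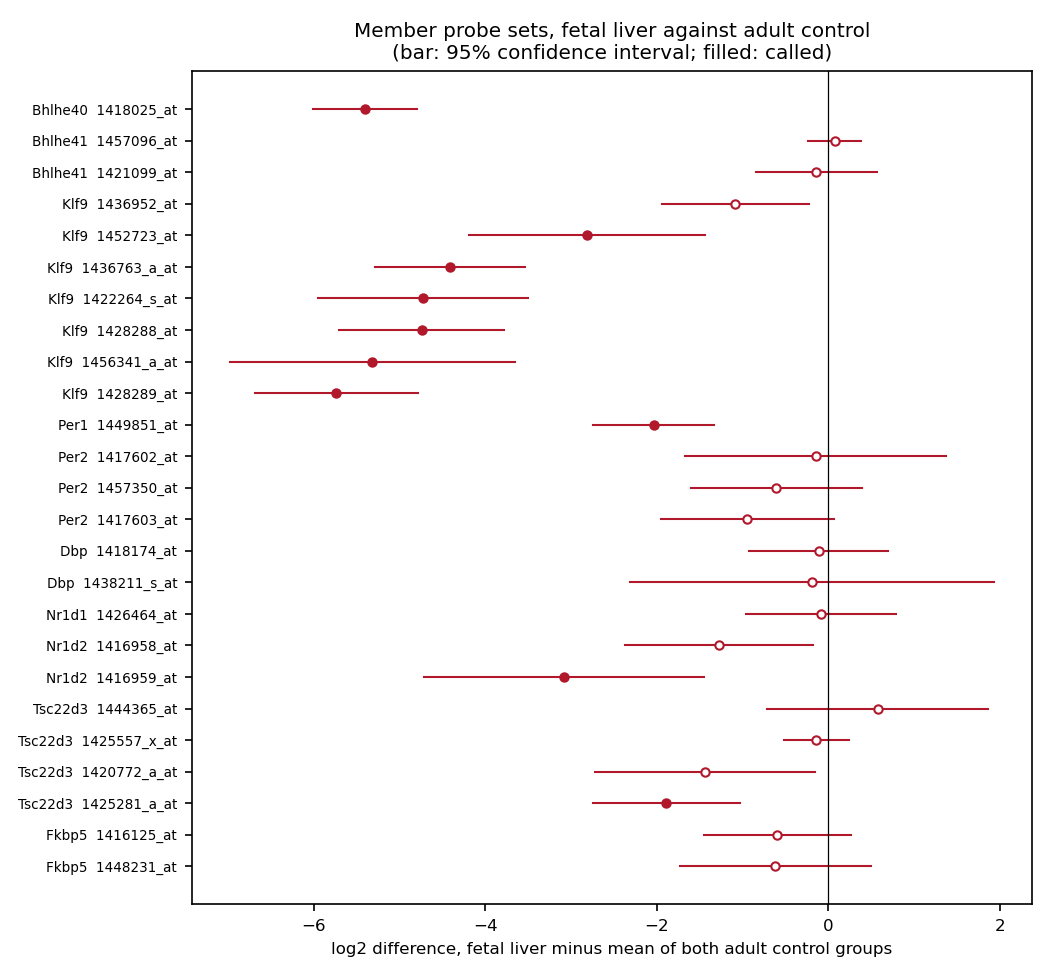
Fetal liver minus adult control (log2 difference, horizontal axis) for each of the 25 member probe sets above the floor, with bars for the 95% confidence interval; filled points are called. The Bhlhe40 point and 5 of the Klf9 points lie beyond -4, and the points of Bhlhe41, Dbp and Nr1d1 lie near 0.

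Fetal arrays also differed from adult arrays in markers of other cell types. Summed over 9 hepatocyte genes, intensity was 833, 11716 and 7560.0 on the fetal arrays, against 459 to 727 in control cells at day 7 and 413 to 1849 at day 21. All 9 had positive fetal differences and 3 were called. Over 8 endothelial genes the sum was 2366, 8314 and 12404 on the fetal arrays, against 909.6 to 1027 and 559 to 1056 in the day 7 and day 21 controls, with 8 positive and 4 called. Over 8 macrophage genes it was 4626, 2797 and 3572 on the fetal arrays, against 178 to 374 and 191 to 511 in the day 7 and day 21 controls, with 8 positive and 3 called, and Adgre1 was at the floor on all adult arrays. The sums over 6 erythroid genes were 3959.9 to 7154 on the fetal arrays, against 403 to 1352 and 388 to 2150.3 in the day 7 and day 21 controls, with 6 positive and 4 called. Those over 8 neutrophil genes were 4941 to 37535 on the fetal arrays, against 2281 to 4476 and 1268 to 5571 in those controls, with 7 positive and 2 called. Stromal genes had 4 of 7 positive and 1 called, and none of 5 lymphocyte genes was called. The hepatocyte sum was lowest on fetal replicate 1 and highest on fetal replicate 2, the same order as the main probe sets of Klf9, Dbp, Tsc22d3 and Fkbp5. The main probe sets of the remaining members had other orders. For Bhlhe40, 1428289_at of Klf9 and Per1, the highest fetal array was 1.86, 2.44 and 1.54 times the lowest. On 1428288_at of Klf9 it was 4.31 times the lowest. That probe set read 69.0, 16 and 30.0, highest on the fetal array with the lowest hepatocyte sum. On the remaining Klf9 probe sets other than the main one, the ratio was 1.18 to 1.40. Among them, 1422264_s_at and 1452723_at read at most 18.9 and 20.2 on the fetal arrays. Values so near the floor of 16 narrow this ratio. The part of these other cells in the fetal levels was not tested.

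The next comparison asks how these genes stood in C/EBPa KO HSCs against control HSCs at day 7 after pIpC. No member probe set was called in either direction, and limma called 0.0025% of all probe sets, so few differences of any gene passed the test here. The smallest adjusted p of a member was 0.395, for Klf9. By unadjusted p under 0.05, 7 of the 25 probe sets passed, against 6.69% of all probe sets. Before adjustment the members that stood lower in KO cells were Klf9, Per2 and Bhlhe40: on 8 probe sets every KO array lay below every control array, as on 6.24% of all probe sets. Of these 8, 4 belong to Klf9, 3 to Per2 and 1 to Bhlhe40. The difference was negative for 20 of 25 probe sets, with a median of -0.75, whereas 50.8% of all probe sets tested were positive. The genes were chosen with these arrays known, so this count is a description. The day 7 controls also enter the fetal comparison, so the values of both comparisons share arrays.

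Klf9 on its main probe set read 3329, 1762 and 1244 in KO cells at day 7, against 6089, 4875 and 4067 in control cells. The arrays did not overlap, and the difference was -1.35 (SE 0.91) with a 95% interval of -3.31 to 0.61. On 1428289_at, KO cells read 1753, 716 and 544, against 3719.9, 2915 and 2096 in control cells, a difference of -1.68 (SE 0.52, limma adjusted p = 0.526). On 1452723_at, KO cells read 39.6, 30.1 and 45.0, against 392, 393 and 224 in control cells, and the difference of -3.11 (SE 0.76) was the widest of the gene. All 7 probe sets of Klf9 had negative differences, between -3.11 and -0.33, and for 3 of them the 95% interval lay below 0.

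Per2 read 52.1, 61.6 and 47.9 in KO cells at day 7, against 89.2, 230.5 and 282 in control cells. Its 3 probe sets all had non-overlapping arrays, with differences of -1.75 (SE 0.55), -2.81 (SE 0.83) and -1.0 (SE 0.54), none of them called (limma adjusted p = 0.535, 0.503 and 0.819). On 1417602_at, KO cells read 19.4, 19.1 and 27.3, close to the floor, against 229, 151 and 101 in control cells. Bhlhe40 read 1125, 535 and 662 in KO cells, against 1392, 1333 and 1473 in control cells. The control arrays of Bhlhe40 lay close together while the highest KO array was 2.10 times the lowest, and the difference was -0.93 (SE 0.33, limma adjusted p = 0.629). Per1 read 651, 1441 and 439.6 in KO cells, against 1155, 1441 and 1388 in control cells, and KO replicate 2 lay within the control range, so the groups overlapped (-0.83, SE 0.39).

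Nr1d1 was the member with every KO array above every control array at day 7, a pattern that 6.73% of all probe sets showed. It read 128, 113 and 75.3 in KO cells, against 46.8, 53.1 and 49.5 in control cells, a difference of 1.05 (SE 0.48, limma adjusted p = 0.738). Its paralog Nr1d2 read 1047, 384 and 432 in KO cells, against 710.5, 766 and 785 in control cells, and overlapped (-0.43, SE 0.89, and -0.58, SE 0.60 on 1416958_at). Dbp read 239.9, 414 and 348 in KO cells, against 279, 412 and 181 in control cells (0.24, SE 1.16), while its other probe set, 1418174_at, had a difference of the opposite sign (-0.75, SE 0.44). Tsc22d3 read 589.9, 539 and 276 in KO cells, against 421, 542 and 661 in control cells (-0.26, SE 0.70), and Fkbp5 read 366, 492 and 294 in KO cells, against 503, 235 and 390.4 in control cells (0.07, SE 0.47). On 1448231_at Fkbp5 differed by -1.01 (SE 0.61), and the other Tsc22d3 probe sets 1425281_a_at, 1425557_x_at and 1444365_at by -0.49, -0.28 and 0.16. On their main probe sets the glucocorticoid targets Tsc22d3 and Fkbp5 overlapped between KO and control cells, with 95% intervals of -1.77 to 1.25 and -0.95 to 1.08 that leave room for differences of more than a factor of 2. Bhlhe41 read 23.8, 27.9 and 21.3 in KO cells, against 25.0, 20.8 and 70.0 in control cells (-0.46, SE 0.39, and 0.06, SE 0.17 on 1457096_at). The signs of these small differences rested on single arrays: Dbp was at -0.058 and Bhlhe41 at 0.082 without control day 7 replicate 3, Tsc22d3 at 0.082 without KO day 7 replicate 3, and Fkbp5 at -0.24 without control day 7 replicate 2 and -0.13 without KO day 7 replicate 2. Summed over the HSC markers Kit, Slamf1, Procr, Mecom and Hlf, intensity was 3885 to 4579 on KO arrays, against 5900.1 to 7182 on control arrays at day 7, with no overlap, and 2744 to 5385 on KO arrays, against 4204 to 6784 on control arrays at day 21. None of these markers was called, and at day 7 Hlf (-0.99, SE 0.33) and Mecom (-0.77, SE 0.42) were lower on every KO array. The markers did not all move in 1 direction. Of the 6 HSC markers in the fit, Cd48 among them, 3 had positive and 3 negative differences at day 7. At day 21, 1 was positive and 5 were negative. The part of the lower sum at day 7 in the lower Klf9, Per2 and Bhlhe40 values was not tested.

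At day 21 after pIpC, again no member probe set was called, while limma called 0.03% of all probe sets. The smallest adjusted p of a member was 0.482, for the Klf9 probe set 1436952_at, which differed by -0.97 (SE 0.41) and was the 1 member probe set with an unadjusted p under 0.05, against 9.35% of all. Differences were positive for 14 and negative for 11 of the 25 probe sets, with a median of 0.17, against 0.0074 over all probe sets tested. Every member probe set had overlapping KO and control arrays. Of all probe sets, 3.13% had every KO array above the controls and 2.03% every KO array below. At such shares few of 25 probe sets would stand apart, so nothing is read from this overlap. The member counts at day 21 describe genes chosen with these arrays known.

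Klf9 at day 21 read 3944, 4680.1, 1921 and 2789 in KO cells, against 6332, 4495, 6089 and 4679 in control cells, a difference of -0.76 (SE 0.79, limma adjusted p = 0.817). Of its 7 probe sets 5 had negative and 2 positive differences, or 6 and 1 with array medians centred. Bhlhe40 read 1688, 1769.9, 1089.6 and 1172 in KO cells, against 2449, 1575, 1203 and 2179.7 in control cells (-0.35, SE 0.29). Per1 read 1515, 1711, 1208 and 868 in KO cells, against 1334, 1115, 698 and 892 in control cells (0.39, SE 0.33). Per2 read 147, 58.6, 123 and 121 in KO cells, against 53.4, 93.2, 72.4 and 219.9 in control cells (0.17, SE 0.48, and -0.10 without control day 21 replicate 1). These clock repressors overlapped between KO and control cells. Tsc22d3 had the widest positive difference, 1.26 (SE 0.61, limma adjusted p = 0.554), from 853, 331, 444 and 491 in KO cells, against 388, 329.9, 193 and 75.8 in control cells, where control replicate 4 was lowest. Its other probe sets, 1425281_a_at, 1425557_x_at and 1444365_at, differed by 0.35, -0.23 and 0.29. Fkbp5 read 432, 498, 323 and 609 in KO cells, against 150.4, 363, 588 and 329 in control cells (0.50, SE 0.41, and 0.55, SE 0.53 on 1448231_at). Nr1d1 read 74.6, 64.2, 79.1 and 92.6 in KO cells, against 68.7, 226, 41.9 and 173 in control cells (-0.42, SE 0.41), with 2 control arrays above every KO array and 1 below them all.

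Nr1d2 at day 21 read 459.8, 645, 309.6 and 239.8 in KO cells, against 391, 539, 63.5 and 607 in control cells, where replicate 3 was lowest (0.36, SE 0.77). Without that array the difference was -0.39, and on 1416958_at it was -0.67 (SE 0.52). Dbp read 112, 135, 254 and 150.3 in KO cells, against 72.7, 71.7, 754 and 23.2 in control cells, where replicate 3 was highest (0.67, SE 1.01). Without control replicate 3 the difference was 1.65, without control replicate 4 it was -0.024, and on 1418174_at it was -0.36 (SE 0.39). Control day 21 replicate 3 is the array with the lowest median and the smallest Gapdh difference, and the part of its RNA quality in these values was not tested. Bhlhe41 read 37.3, 57.9, 51.4 and 31.6 in KO cells, against 22.2, 32.0, 38.0 and 28.9 in control cells (0.54, SE 0.33), with -0.29 (SE 0.15) on 1457096_at. No erythroid or neutrophil marker was called in either KO comparison. Differences were positive for 5 of 6 erythroid genes at each day, and for 1 of 8 neutrophil genes at day 7 and 0 of 8 at day 21. The erythroid sum was 758 to 5722 on KO arrays, against 403 to 1352 on control arrays at day 7, and 894 to 3886 on KO arrays, against 388 to 2150.3 on control arrays at day 21. The neutrophil sum was 1201 to 2972 on KO arrays, against 2281 to 4476 on control arrays at day 7, and 960.0 to 1585 on KO arrays, against 1268 to 5571 on control arrays at day 21. Their part in the members' values was not tested.

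**Figure D4:**
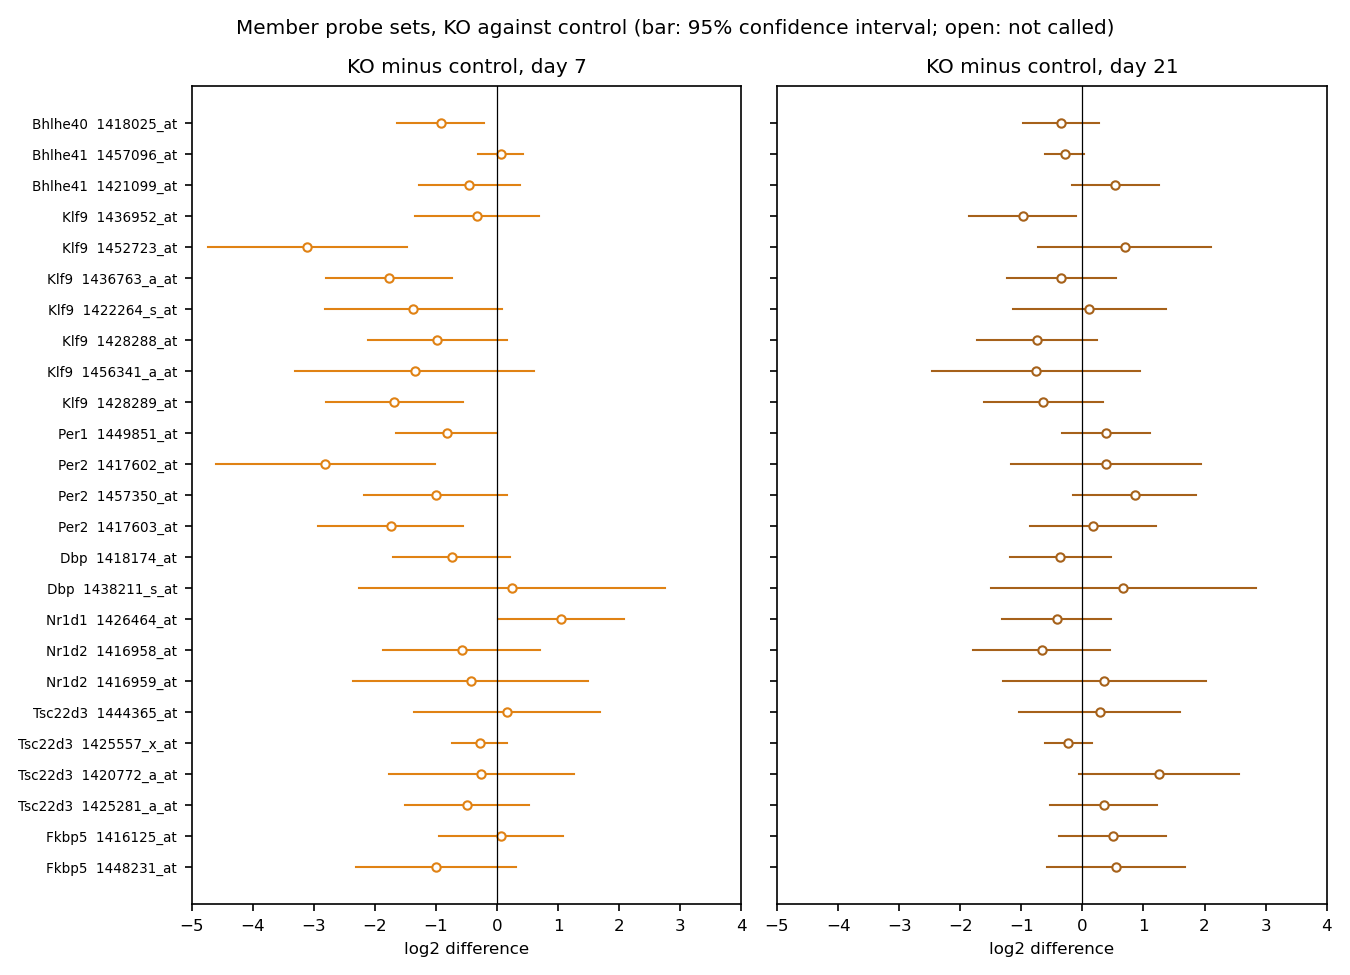
KO minus control (log2 difference, horizontal axis) at day 7 and day 21 for each of the 25 member probe sets above the floor, with bars for the 95% confidence interval. At day 7 the points of Klf9 and Per2 lie below 0, and at day 21 the points of the 10 genes lie on both sides of 0; all points are open because none was called.

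Whether the KO difference itself changed between the days was tested directly as day 21 minus day 7. No member probe set was called, as 0.0025% of all probe sets were, and the smallest adjusted p of a member was 0.747. An unadjusted p under 0.05 was found for 7 of the 25 probe sets, against 4.71% of all. The estimate was positive for 21 of the 25, against 51.1% of all probe sets tested, with a median of 0.79 against 0.0097. For Klf9 it ranged from -0.65 (SE 0.62) on 1436952_at to 3.80 (SE 1.00) on the dim 1452723_at, the probe set that was also lower in day 21 than in day 7 controls, and was 0.59 on the main probe set, with a 95% interval of -2.00 to 3.18. For Per2 it was 1.92 (SE 0.73) on the main probe set, 1.86 (SE 0.72) on 1457350_at and 3.20 (SE 1.10) on 1417602_at. On 1417602_at the day 7 KO arrays read 19.1 to 27.3, and control day 21 replicates 1, 3 and 4 read 16, 16 and 16.6. That estimate therefore rests on values at or near the floor, and the controls also differed between the days (-2.33, SE 0.78). The estimate was 1.22 (SE 0.51) for Per1, 0.57 (SE 0.44) for Bhlhe40 and -1.47 (SE 0.63) for Nr1d1. Averaged over both days, no member was called either, against 0.0275% of all probe sets, 6 had an unadjusted p under 0.05, against 10.7% of all, and the smallest adjusted p was 0.242. The mean KO difference was -1.05 (SE 0.60) for Klf9, -0.64 (SE 0.22) for Bhlhe40, -0.79 (SE 0.37) for Per2 and -0.22 (SE 0.25) for Per1. Several of the 25 probe sets belong to the same gene, and the genes were chosen with these arrays known. The member counts between the days and averaged over them are therefore a description.

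Control cells of the later day were set against those of the earlier day to see how the members stood without the knockout. None was called, against 0.05% of all probe sets, 3 had an unadjusted p under 0.05, against 7.53% of all, and the smallest adjusted p was 0.341. On 1452723_at of Klf9, control cells read 154, 78.9, 26.3 and 17.9 at day 21, against 392, 393 and 224 at day 7 (-2.74, SE 0.71). On 1417602_at of Per2 they read 16, 194, 16 and 16.6 at day 21, against 229, 151 and 101 at day 7 (-2.33, SE 0.78). Control day 21 replicate 2 was far above the other 3 day 21 arrays on this probe set, and without it the difference was -3.23 (SE 0.48) and was called (limma adjusted p = 0.0299). Those 3 arrays lay at the floor or next to it, which narrows their spread, so this SE and p-value rest on floored values. It was the only 1 of 7 fits without 1 array that called a member. On the main probe sets of both genes the differences were 0.11 (SE 0.85) for Klf9 and -0.93 (SE 0.52) for Per2. Nr1d1 differed by 1.05 (SE 0.45), Tsc22d3 by -1.36 (SE 0.66) and Bhlhe40 by 0.35 (SE 0.31). On 4 member probe sets every day 21 control lay below every day 7 control, as on 3.42% of all probe sets. The member counts between the control days are likewise a description of genes chosen with these arrays known.

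The other genes of both pathways were read from 3 lists, each gene by its main probe set. The lists were drawn up with earlier results of these arrays known, so their counts and p-values describe the genes and support nothing further. Of 19 core clock genes, 17 had a probe set in the fit, and none was called by limma in the fetal comparison or in either KO comparison. At an unadjusted p under 0.05 there were 0 in the fetal comparison, 2 in KO cells at day 7 and 2 at day 21, against 15.7%, 6.69% and 9.35% of all probe sets. In fetal cells 7 were positive and 10 negative, with a median of -0.30. The activators differed by 0.32 (SE 0.64) for Arntl and -1.61 (SE 1.00) for Clock, and the D-box repressor Nfil3 by -1.01 (SE 0.75), with limma adjusted p = 0.876, 0.483 and 0.578 in that order. The smallest adjusted p of the list was that of Rora, an activator of Arntl (-1.21, SE 0.59, adjusted p = 0.341). In KO cells the day 7 and then the day 21 difference was -0.68 (SE 0.75) and -0.25 (SE 0.65) for Arntl, -1.49 (SE 1.19) and -0.86 (SE 1.03) for Clock, and -0.81 (SE 0.89) and -0.11 (SE 0.77) for Nfil3. The list's smallest adjusted p was that of Hlf, a relative of Dbp, at day 7 (-0.99, SE 0.33, limma adjusted p = 0.577) and of Btrc, which helps to degrade period proteins, at day 21 (2.31, SE 0.85, limma adjusted p = 0.407). Counts in KO cells were 4 positive and 13 negative at day 7, with a median of -0.23, and 5 positive and 12 negative at day 21, with a median of -0.21.

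Of 9 genes of the glucocorticoid receptor machinery, 7 had a probe set in the fit, and none was called by limma in these comparisons, with 1, 0 and 0 at an unadjusted p under 0.05 in the fetal, day 7 KO and day 21 KO comparisons. Nr3c1, the receptor gene, differed by 0.83 (SE 0.36) in fetal cells (limma adjusted p = 0.276), while in KO cells its day 7 value was 0.71 (SE 0.42) and its day 21 value 0.47 (SE 0.37). Its 5 other probe sets had fetal differences between -1.02 and 0.42, on both sides of 0. Hsp90aa1, a chaperone of the receptor, had the list's smallest p at day 7 (0.28, SE 0.16, limma adjusted p = 0.825) and Nr3c1 at day 21 (limma adjusted p = 0.733). The list's median was 0.039 in fetal cells, 0.0040 in KO cells at day 7 and -0.076 at day 21.

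Of 15 further genes known to be induced by glucocorticoids, all were in the fit, and 4 were called lower and 1 higher in fetal cells, against 1.61% and 1.46% of all probe sets, with a median of -1.06. At an unadjusted p under 0.05 there were 11 of 15, against 15.7% of all. The genes called were Cdkn1a, the gene for the cell cycle inhibitor p21 (-3.43, SE 0.29, limma adjusted p = 1.53e-05), Zfp36, which promotes decay of inflammatory mRNAs (-1.12, SE 0.13, adjusted p = 0.000188), Nfkbia, the inhibitor of NF-κB (-1.84, SE 0.26, adjusted p = 0.00142), Zbtb16, also called PLZF (-2.87, SE 0.50, adjusted p = 0.00677), and, in the other direction, Mt1, a metallothionein (3.42, SE 0.73, adjusted p = 0.0212). Zbtb16 and Mt1 were named after their values were seen, since the count was small. The other probe sets of Cdkn1a and Nfkbia were also called lower, whereas those of Zbtb16 (-1.41 and -0.65) and Mt1 (0.12) were not called. Sgk1, a kinase gene, differed by 0.16 (SE 0.73). The fetal arrays that carried these values also carried the liver, endothelial and macrophage marker signal given above, whose part in them was not tested. In KO cells none of the 15 was called by limma, with 2 at an unadjusted p under 0.05 at day 7 and 2 at day 21, against 6.69% and 9.35% of all. Cdkn1a had the smallest p at day 7 (-1.87, SE 0.34, limma adjusted p = 0.152) and Errfi1, a feedback inhibitor of EGF receptor signalling, at day 21 (-1.45, SE 0.47, limma adjusted p = 0.338). For Sgk1 the day 7 value was -0.89 (SE 0.86) and the day 21 value -0.28 (SE 0.74). The list's median was 0.16 at day 7 and 0.0077 at day 21. Between the control days none of the 3 lists had a called gene.

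**Figure D5:**
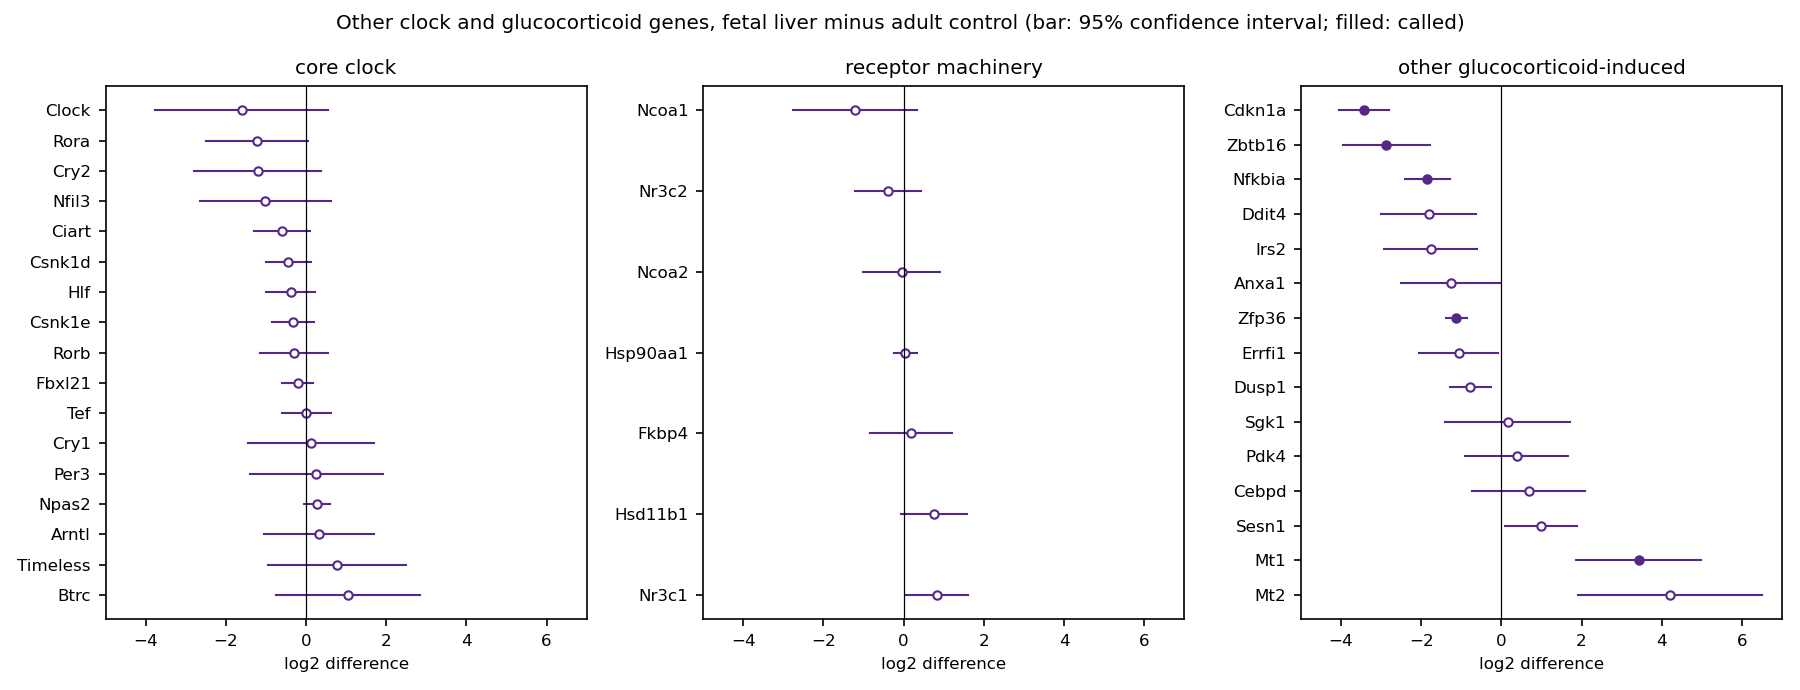
Fetal liver minus adult control (log2 difference, horizontal axis) for the main probe set of each tested gene of the 3 lists, with bars for the 95% confidence interval; filled points are called. The called genes all belong to the glucocorticoid-induced list, 4 below 0 and Mt1 above it.

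For each member, the probe set of another gene with the most similar profile was sought among the 19441 probe sets above the median level, by Pearson's r of log2 intensity over the 17 arrays. The profile of Bhlhe40 was most like that of Klf9 on 1428289_at (r = 0.97), and that of the main Klf9 probe set most like B2m (r = 0.92). Per1 was nearest to Ocrl (r = 0.92), Nr1d2 to Socs3 (r = 0.90), Tsc22d3 to Washc4 (r = 0.90) and Dbp to Nbeal2 (r = 0.89). Fkbp5 was nearest to Nt5dc3 (r = 0.87), Nr1d1 to Pkp3 (r = 0.82), Per2 to Birc6 (r = 0.80) and Bhlhe41, a dim probe set, to Arhgef25 (r = 0.92). The arrays share their group differences, the gap between fetal and adult cells among them, and that gap is part of each r. Bhlhe40 and the main Klf9 probe set had r = 0.90 over the log2 intensities. Once each array was taken as its deviation from its group mean, that pair had r = 0.41 (n = 17). Among probe sets of 1 gene, those deviations had r = 0.86 for Tsc22d3 on 1420772_a_at and 1425281_a_at, r = 0.74 for both Dbp probe sets, and r = -0.42 for both Nr1d2 probe sets (n = 17 arrays each). The probe sets of Nr1d2 thus did not follow each other from array to array, and this was not particular to Nr1d2. Deviations had r = -0.037 for Fkbp5, r = -0.0086 for Bhlhe41 and r from -0.037 to 0.35 for the Per2 pairs. For the other Tsc22d3 pairs r ran from -0.039 to 0.33, and for the Klf9 pairs from -0.33 to 0.66.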

How the data were processed

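RNA of sorted mouse HSCs was measured on 17 Affymetrix arrays in 5 groups taken from the sample titles. The authors deposited linear intensities, 1 value per probe set and array, with a floor of 16. RMA is the tool named in the submitters' processing notes, without role or version, and no source used here gives the scaling between arrays. No further scaling was applied. Log2 of the deposited intensity was taken with no pseudocount. Of 45101 probe sets, 64 were controls and 5014 others lay at the floor on all arrays, which left 40023. The platform annotation named 34945 probe sets by 1 symbol and 932 by several, and left 9160 unnamed; 34741 identifiers matched RefSeq genes (GRCm38.p6).

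Group means of all 17 arrays were estimated in a single limma model (version 3.58.1, R 4.3.3; functions lmFit and eBayes; 12 residual degrees of freedom), and p-values were adjusted by Benjamini-Hochberg over all 40023 probe sets. The fetal comparison used the mean of both control groups. The fit was tested on simulated data: at 2-fold it recovered 10.4% of changed probe sets in the fetal comparison, 5.97% in the KO comparison at day 7 and 13.4% at day 21, at 4-fold 26.9%, 14.9% and 29.9%, and at 16-fold 86.4%, 78.8% and 87.9%, with 5, 11 and 5 unchanged probe sets called. The changed probe sets were drawn from those above the median level, and the noise was normal, independent and without a floor. These rates therefore do not cover dim member probe sets. Precision is limited by how many arrays each group has.

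The members and lists were chosen with earlier results of these data known. All 10 genes are named, each by its main probe set, with the other probe sets or their range in the fetal comparison and in the KO comparison of each day; from each list the up to 3 called genes with the smallest p are named, or the 1 with the smallest p, with Arntl, Clock, Nfil3, Nr3c1 and Sgk1 always. No 2 arrays held identical values, and their highest correlation was 0.952. Alternatives changed the scaling, the arrays in the fit, covariates, probe sets, the pseudocount and the variance model, and left out each array. Protein sequences were not used here.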

Additional observations from a re-analysis of the deposited data

Results flagged for a closer look

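In groups of 4 arrays, the array farthest from the others was compared with the range of its group, and 4 of 50 groups of member probe sets had an array that stood apart; chance gives about 1 in 20. All values are log2 intensities. For Per2 on 1417602_at, control day 21 replicate 2 was at 7.598, whereas the next highest control was at 4.054 and the lowest at the floor of 4. For Tsc22d3 on 1425281_a_at, control day 21 replicate 4 was at 6.637, below the others at 8.012 to 8.088. On the same probe set KO day 21 replicate 4 was at 7.812, below the others at 8.101 to 8.131. For Fkbp5 on 1448231_at, KO day 21 replicate 2 was at 6.688, below the others at 7.657 to 7.748.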

How the results depend on the processing

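The fetal differences of Bhlhe40, Klf9 and Per1 on their main probe sets were negative under all 21 alternatives, which describes genes that may have been chosen for this pattern. No member probe set was called in the KO comparisons at day 7, at day 21, averaged or between the days under any alternative. Without 1 array the fetal difference lay between -5.67 and -5.22 for Bhlhe40, -6.33 and -3.81 for Klf9 and -2.16 and -1.84 for Per1; no called difference changed sign. The 10 member calls in fetal liver became 7 to 10 without 1 array, 7 with the compared arrays alone and 7 against day 21 controls alone. They became 4 with 1 probe set per gene, where 10 were tested. The compared arrays alone lost the calls of Nr1d2, 1425281_a_at of Tsc22d3 and 1452723_at of Klf9. The replicate block lost that of Nr1d2. Between the control days 0 to 1 member was called without 1 array. Over all probe sets, the fetal count of 1228 was 846 to 1375 without 1 array, 486 with the compared arrays alone, 613 with 1 probe set per gene and 783 against day 7 controls alone. The count at KO day 7 was 1, 4 to 11 without 1 array, 0 with the compared arrays alone, with 1 probe set per gene and with brighter probe sets alone, and 3 with a trended, robust variance. The count at KO day 21 was 12, 0 to 56 without 1 array, 1 with the compared arrays alone, 0 with the replicate block, the floor share as covariate or the trended variance, 3 with 1 probe set per gene and 7 with brighter probe sets alone. Averaged over days it was 11, 2 to 27 without 1 array, 3 after quantile normalization, 6 with the compared arrays alone, 0 with the replicate block or the floor share, 27 on log2(intensity + 16) and 19 with the trended variance. Between the days the KO effect gave 1, 1 to 5 without 1 array, 2 with centred arrays, 3 with the compared arrays alone, and 0 with the replicate block, 1 probe set per gene or brighter probe sets alone. Between control days 20 became 9 to 44 without 1 array, 11 with the replicate block, 5 with 1 probe set per gene and 10 with brighter probe sets alone or with the floor share. The causes of these shifts were not tested. Same-numbered arrays of different groups had deviations correlated at -0.030 to 0.080 over 31 pairs, against -0.087 to 0.053 over 84 other pairs. Between KO and control arrays of day 7, the same-numbered pairs had 0.076, 0.023 and 0.080, and the other pairs -0.087 to 0.029. Whether the numbers pair the samples at that day is therefore not settled, and the main fit treated the arrays as unpaired. Centring the arrays moved the median of all probe sets to -0.15 in the KO comparison at day 21 and to 0.15 between the control days, and moved members with it. With centred or quantile-normalized arrays the fetal signs stayed at 2 positive and 23 negative, and in each other comparison 0 or 1 more or fewer of the 25 member probe sets was positive. Values near the floor are bounds, and differences of dim probe sets such as those of Bhlhe41 are limited by it.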
